A study of Homo sapiens with 6 samples.

Results

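Box C/D small nucleolar RNA (snoRNA) genes were followed through RNA immunoprecipitation (RIP) of NAT10, an RNA acetyltransferase, in 2 colorectal cancer cell lines. The genes were chosen by their FPKM values (fragments per kilobase of gene, scaled to library size) as those with a symbol starting with SNORD and an FPKM above 0 in at least 1 of the 4 columns of the RIP table. This rule kept 79 of 375 SNORD genes, in a table of 58302 genes, and the other 296 were listed at 0 in all 4 columns. Since measured values chose the genes, the statements below on how many were present, and in which library, are a description.

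The study sequenced untreated wild-type SW480 and DLD-1 cells, which are established human colorectal cancer lines grown in the same medium. Each line gave 1 Input library of total RNA, 1 library of RNA recovered with NAT10 (RIP), and 1 library of RNA recovered with an antibody against N4-acetylcytidine (ac4C), a modification of cytidine (acRIP). There was 1 library per group, so every difference below is between libraries and has no replicate check. Input was labelled total RNA and RIP RNA came from a cell lysate, so the extraction and the immunoprecipitation cannot be told apart.

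Box C/D snoRNAs are short nucleolar RNAs that carry the box C and box D motifs and assemble with fibrillarin (FBL), NOP56, NOP58 and SNU13. Most guide the methylation of the ribose of ribosomal RNA or of the spliceosomal RNA U6, and are cut from introns of a host gene, often a ribosomal protein gene or a non-coding snoRNA host. A few act otherwise: SNORD3 (U3) is needed for cleavage of the ribosomal RNA precursor, and SNORD13 (U13) base-pairs with 18S ribosomal RNA beside the cytidine that NAT10 acetylates there.

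Reads were recovered from the FPKM values, which step by the value of 1 read. With the RefSeq length 34 of the 79 genes gave whole reads in every column, and for the other genes (28 near the RefSeq length and 17 by the smallest length) the length was fitted so that reads came out whole. The implied totals were 29628966 reads for RIP SW480, 14617145 for Input SW480, 25189477 for RIP DLD-1 and 13498777 for Input DLD-1. A second table, deposited with the acRIP data, holds its own column for each Input, at 11007688 and 10817661 reads, and the rule did not use it. In a gene of 80 bases, 1 read was worth 0.422 to 1.16 FPKM across the 6 columns, so that a snoRNA listed at 0 may still have been present at a low level. SNORD118 (U8) and the RNAs RMRP, RPPH1 and RN7SK, which every growing cell uses, were listed at 0 in all 6 columns, and a 0 is therefore not read as absence.

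The labels of the RIP libraries did not pair with those of the Inputs. Across 11605 protein-coding genes, log2(FPKM + 1) in RIP SW480 had a correlation of r = 0.895 with Input DLD-1 and of r = 0.755 with Input SW480, and in RIP DLD-1 of r = 0.912 with Input SW480 and of r = 0.724 with Input DLD-1. The intestinal transcription factor CDX2 had 33.4 FPKM in Input SW480 and 7.0 in Input DLD-1, but 4.31 in RIP SW480 and 28.3 in RIP DLD-1. The library names below are the labels, and values with the Inputs exchanged between labels are given beside the main comparisons. The epithelial markers EPCAM, CDH1, KRT8 and KRT18 were above 50 FPKM in every column and the intestinal marker VIL1 lay between 0.261 and 2.89 FPKM, whereas PTPRC, COL1A1 and PECAM1, which mark blood, stromal and endothelial cells, reached at most 0.381 FPKM.

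Of the 79 genes, 53 were above 0 in RIP SW480, 54 in Input SW480, 55 in RIP DLD-1 and 54 in Input DLD-1. A core of 33 genes was above 0 in all 4 libraries. A further 15 were above 0 only in an Input and 17 only in a RIP library, with 17 in a single library and 5 at a maximum of 1 read. In the acRIP table, which the rule did not use, 49 of the 79 were above 0 in Input SW480 and 46 in Input DLD-1. Of the 296 genes listed at 0 in the RIP table, 3 (SNORD30, SNORD38A and SNORD78) were above 0 there, at no more than 2 reads. The 4 copies of SNORD3 held 33.1 to 62.9% of the summed FPKM of box C/D genes in the 6 columns. In recovered reads their share was 78.4 to 91.0%, which rests on the long gene spans fitted to these copies.

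Together, the 79 genes took a smaller share of reads in RIP than in Input. In reads scaled to library size (RPM), they held 111 RPM in RIP SW480 and 1086 in Input SW480, a ratio of 0.103 (95% counting interval 0.0987 to 0.106). In the DLD-1 libraries they held 432 RPM in RIP and 977 in Input, a ratio of 0.443 (0.431 to 0.454). The intervals cover counting error only, since reads copied in PCR are not independent molecules. Input SW480 over Input DLD-1 gave 1.11 (1.09 to 1.14) for this sum, whereas RIP SW480 had 0.258 times the sum of RIP DLD-1 (0.248 to 0.268). Without the SNORD3 copies, RIP over Input was 0.129 (0.119 to 0.140) in SW480 and 0.384 (0.358 to 0.411) in DLD-1, so the lower share did not rest on SNORD3. With the Inputs exchanged between labels, RIP over Input for all 79 genes was 0.114 (0.110 to 0.118) for RIP SW480 and 0.398 (0.388 to 0.408) for RIP DLD-1. The Inputs of the acRIP table held 2189 and 1948 RPM. The RIP-table Inputs were at 0.461 and 0.467 of these for SNORD3, and at 0.793 and 0.853 for the other box C/D genes.

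The U3 snoRNA was the most abundant box C/D RNA and was lower in both RIP libraries through its main copy, SNORD3A (chr17:19188016-19188232, GRCh38). SNORD3A had 113.4 FPKM in RIP SW480, 1178 in Input SW480, 408 in RIP DLD-1 and 1132 in Input DLD-1, with 2483 and 1981 in the SW480 and DLD-1 Inputs of the acRIP table. Its RPM in RIP was 0.0963 times that in Input in SW480 (0.0921 to 0.101) and 0.360 times in DLD-1 (0.350 to 0.371). Both Inputs stood above both RIP libraries, and with the Inputs exchanged the ratios were 0.10 and 0.346. SNORD3C, also on chromosome 17, likewise had both Inputs above both RIP libraries. It had 1.22 FPKM in RIP SW480, 33.0 in Input SW480, 5.33 in RIP DLD-1 and 36.1 in Input DLD-1, and 244 and 267 in the acRIP-table Inputs.

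The remaining SNORD3 copies went in opposite directions in the 2 lines. SNORD3B-2 had 6.06 FPKM in RIP SW480, 34.1 in Input SW480, 69.5 in RIP DLD-1 and 5.15 in Input DLD-1, so RIP over Input was 0.178 (0.146 to 0.216) in SW480 and 13.5 (10.3 to 18.0) in DLD-1. SNORD3B-1 had 3.38, 39.9, 42.2 and 15.3 FPKM in the same order, and RIP over Input was 0.0848 (0.0656 to 0.108) in SW480 and 2.75 (2.31 to 3.28) in DLD-1. With the Inputs exchanged between labels, the log2 ratios were 0.20 for RIP SW480 and 1.01 for RIP DLD-1 in SNORD3B-2, and -1.90 and 0.08 in SNORD3B-1, so the opposite directions were not kept in SNORD3B-2. The copies did not keep a fixed proportion between the tables either: SNORD3B-1 had 271 FPKM in the DLD-1 Input of the acRIP table, against 15.3 in that of the RIP table. The SNORD3 copies are near-identical, so the counting may have split shared reads between them, and their sum is given as well. The sum rests on fitted lengths, for which reads are lower limits, so it is not certain either. Their FPKM values fit gene lengths of 581 to 791 bases, while RefSeq gives each snoRNA 217 bases, so their FPKM is divided by a span longer than the snoRNA itself. Summed over the 4 copies, RIP over Input was 0.0971 (0.0930 to 0.101) in SW480 and 0.453 (0.441 to 0.466) in DLD-1. SNORD3D, SNORD3E, SNORD3G, SNORD3H and SNORD3J were listed at 0.

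SNORD13, the snoRNA that pairs with the site acetylated by NAT10 in 18S ribosomal RNA, was present in both RIP libraries and listed at 0 in both Inputs of the RIP table. It had 71 reads (23.0 FPKM) in RIP SW480 and 202 reads (77.1 FPKM) in RIP DLD-1, the second-highest mean RIP level of all 79 genes after SNORD3A. In the Inputs of the acRIP table, however, SNORD13 had 246 reads (215 FPKM) in SW480 and 92 reads (81.8 FPKM) in DLD-1. In RPM, RIP was 0.107 times the acRIP-table Input in SW480 (0.0812 to 0.140) and 0.943 times in DLD-1 (0.733 to 1.22). With these Inputs scaled to the RIP-table median over protein-coding genes, log2 ratios of FPKM + 1 were -3.71 in SW480 and -0.68 in DLD-1, without an interval. The direction for SNORD13 thus depended on which Input table was used. RIP was above Inputs listed at 0 and below Inputs in which SNORD13 was counted, though in DLD-1 the unscaled ratio lay within counting error of 1. With the acRIP-table Inputs exchanged between labels, the unscaled ratios in RPM were 0.282 (0.204 to 0.388) for RIP SW480 and 0.359 (0.296 to 0.434) for RIP DLD-1, both below 1. No fold over the RIP-table Inputs is given. The copies SNORD13E and SNORD13P3 had a single read in RIP SW480 and 8 reads in RIP DLD-1, respectively, and nothing elsewhere in the RIP table, while SNORD13P1 was listed at 0.

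**Figure D1:**
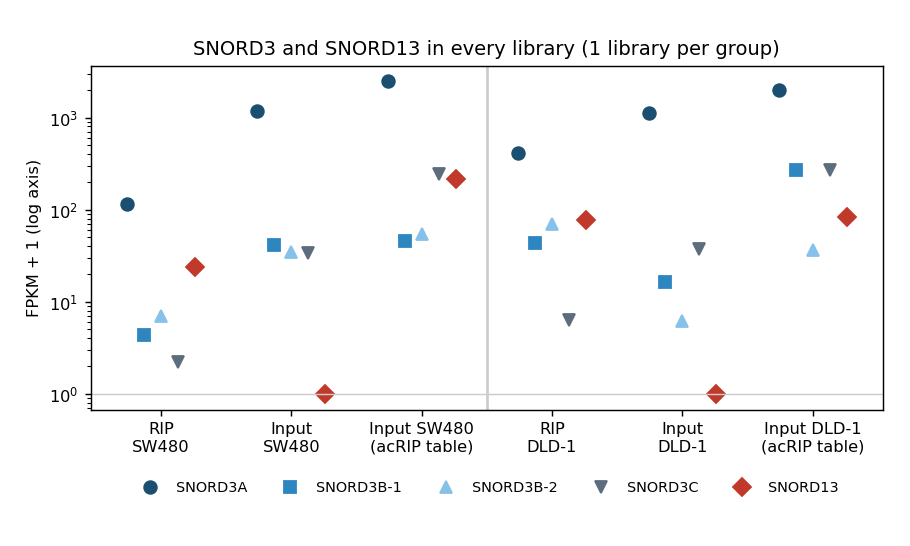
FPKM + 1 on a log axis of the 4 SNORD3 copies and SNORD13 (points) in the RIP library and both Input columns of each line, with 1 library per group and no error bars. SNORD3A lay highest in every column, at 113.4 to 2483 FPKM, and SNORD13 lay at 0 FPKM in both RIP-table Inputs but at 215 and 81.8 in the acRIP-table Inputs.

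For the gene-by-gene comparison, RIP over Input was taken as log2((RIP FPKM + 1)/(Input FPKM + 1)) over genes with a mean FPKM of at least 1 in the 4 columns, on which changes of genes with low values come out too small. Of the 79 genes 64 passed, and 15 did not, SNORD13E and SNORD13P3 among them. The lowest mean that passed was 1.10 (a SNORD56 copy named from Rfam), and the highest that did not was 0.998 (SNORD41). Of the 64, 13 passed only on Input and 6 only on RIP, and these had to differ, so the counts below are a description. A gene was counted as lower or higher at a fold of at least 2.

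In the SW480 libraries 41 of 64 box C/D genes were lower in RIP and 10 were higher, whereas 16.6% of all 15086 genes past the same filter were lower and 21.0% higher. The median log2 ratio was -1.84 over the box C/D genes and 0.13 over all genes. In the DLD-1 libraries 31 were lower and 13 higher, beside 22.5% lower and 17.4% higher of all genes, with a median of -0.95 against -0.04. Of the 41 lower genes in SW480, 11 were listed at 0 in RIP, and of the 10 higher genes, 7 were listed at 0 in Input (13 of 31 and 8 of 13 in DLD-1). Among the 39 genes above 0 in both RIP and Input, 30 were lower and 3 higher in SW480 (median -2.16), and 18 were lower and 5 higher in DLD-1 (median -0.91). With genes at 0 set to a floor of 3 reads per library, and 11 genes at or under it in both libraries left out, the median was -2.30 in SW480 and -1.48 in DLD-1.

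With the Inputs exchanged between labels, 37 were lower and 7 higher for RIP SW480 (11.8% and 11.2% of all genes), and 33 and 15 for RIP DLD-1 (11.5% and 11.3%). Over the acRIP-table Inputs, scaled to the same median over protein-coding genes, 37 were lower and 8 higher in SW480 (15.1% and 23.0% of all genes), and 30 and 14 in DLD-1 (20.5% and 19.2%). All 3 Inputs therefore gave more lower than higher box C/D genes in both RIP libraries, though the exchanged Inputs are the same libraries as in the main comparison.

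**Figure D2:**
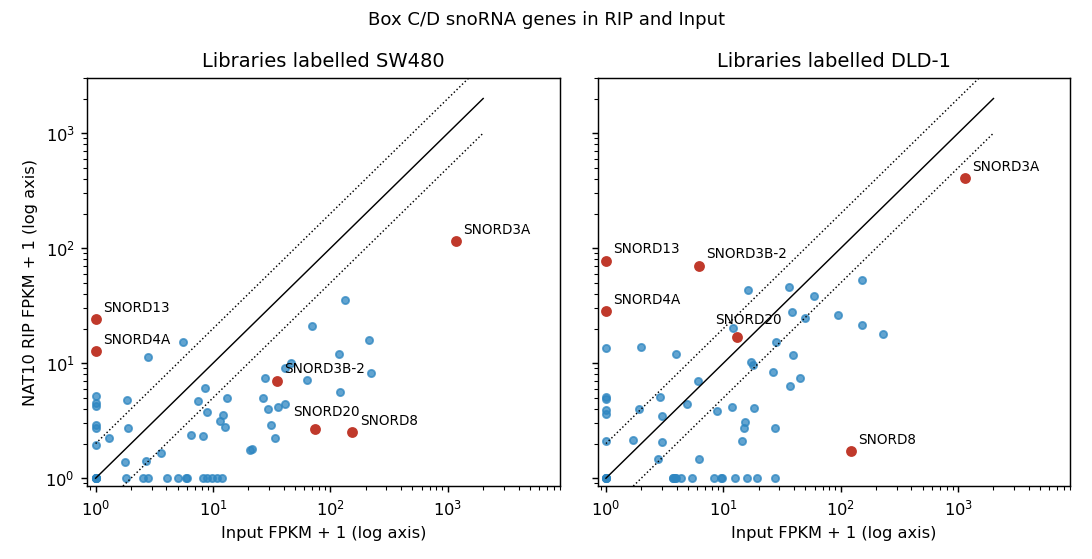
FPKM + 1 in NAT10 RIP against FPKM + 1 in Input, both on log axes, for the 64 box C/D genes past the filter (points, selected genes in red), with 1 library on each axis. The solid line marks equal values and the dotted lines a fold of 2. In SW480 41 genes lie below the lower dotted line and 10 above the upper one, and in DLD-1 31 and 13.

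In both lines 21 box C/D genes were lower in RIP (5.15% of all genes) and 6 were higher (4.41%), and 7 were called in opposite directions (11.4%). The exchanged Inputs gave 25 lower (5.99%) and 5 higher (6.46%) in both RIP libraries. Over all 3 Inputs, 3 genes were higher in both RIP libraries (1.9% of all genes), namely SNORD19, SNORD73B and a SNORD56 copy named from Rfam. None of these 3 had a read in any Input column, so they could only come out higher. Lower in both were 12 genes (2.51%): SNORD3A, SNORD3C, SNORD8, SNORD11, SNORD12C, SNORD15B, SNORD17, SNORD63B, SNORD82, SNORD88A, SNORD89 and SNORD104. The exchanged Inputs are the same libraries under the other label, so the 3 Inputs are not separate checks. When both lines were taken as replicates in limma, no box C/D gene passed an adjusted p of 0.05 in either direction, while 23 were lower and 4 higher at an unadjusted p under 0.05 (6.91% and 9.69% of all genes). At the adjusted p, 0.00663% of all genes were lower and 0.0% higher. The lowest adjusted p by limma was 0.0545, for SNORD8.

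SNORD8, a guide for the methylation of U6, was the gene furthest below Input in both lines. It lies within CHD8 (chr14:21397293-21397401, GRCh38) and had 1.53 FPKM in RIP SW480, 153 in Input SW480, 0.722 in RIP DLD-1 and 121 in Input DLD-1, with 276 and 236 in the acRIP-table Inputs. These were 5, 246, 2 and 180 reads in the RIP table. RIP in RPM was 0.010 times Input in SW480 (0.0032 to 0.0237) and 0.0060 times in DLD-1 (0.0007 to 0.0218). All 4 Inputs lay above 100 FPKM and both RIP libraries below 2, and with the Inputs exchanged the ratios were 0.0127 and 0.0047. The other U6 guides among the genes, which were picked out after their values were seen, lay closer to Input. SNORD94 had 6.41, 27, 8.69 and 16.8 FPKM in RIP SW480, Input SW480, RIP DLD-1 and Input DLD-1, SNORD67 had 2.13, 10.5, 1.07 and 2.0, and SNORD9, which lies in CHD8 as SNORD8 does, had 0.65, 2.63, 1.15 and 0.71.

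SNORD15B, a guide for 28S ribosomal RNA within the ribosomal protein gene RPS3, had 7.17 FPKM in RIP SW480, 222 in Input SW480, 20.4 in RIP DLD-1 and 150 in Input DLD-1. SNORD17, a 28S guide within SNX5, had 14.8, 211, 52.3 and 152 FPKM in the same order, and in reads its RIP over Input was 0.0703 (0.0567 to 0.0864) in SW480 and 0.344 (0.297 to 0.397) in DLD-1 (0.0975 and 0.248 with the Inputs exchanged). For both genes the Inputs lay above 100 FPKM and the RIP libraries below 60, with RIP DLD-1 above RIP SW480. SNORD63B, within HSPA9, had the reverse order of RIP libraries, at 34.2 FPKM in RIP SW480 and 17 in RIP DLD-1, against 133 and 230 in the Inputs. SNORD11 and SNORD82, within the genes for the nucleolar proteins NOP58 and NCL, reached at most 2 reads in a RIP library, and had 25 and 17, and 9 and 8 reads in the Inputs. SNORD105 was at 0 in both RIP libraries on 9 and 10 Input reads, but at 2 and 0 reads in the acRIP-table Inputs. SNORD89 had 2.96 and 1.74 FPKM in RIP SW480 and RIP DLD-1, against 28.2 and 26.6 in the Inputs.

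Of the 64 box C/D genes, 6 were higher in both RIP libraries, beside 4.41% of all genes. None of the 6 was above 0 in the RIP-table Input DLD-1. All but a SNORD19 copy named from Rfam were also at 0 in the RIP-table Input SW480, so their direction was fixed. For 2 of the 6 the counting interval excluded 1 in both lines. SNORD4A, within the ribosomal protein gene RPL23A (chr17:28722582-28722653, GRCh38), had 25 reads (11.7 FPKM) in RIP SW480 and 50 reads (27.6 FPKM) in RIP DLD-1 and was listed at 0 in both Inputs. As with SNORD13, it was counted in the acRIP-table Inputs, at 15 and 18 reads (18.9 and 23.1 FPKM). RIP over those, in unscaled RPM, was 0.619 (0.314 to 1.26) in SW480 and 1.19 (0.684 to 2.17) in DLD-1, both within counting error of 1. Over the scaled acRIP-table Inputs its log2 ratios were -1.17 in SW480 and -0.33 in DLD-1, without an interval. Of the 79 genes, SNORD13 and SNORD4A were the only ones listed at 0 in both RIP-table Inputs that had a read in an acRIP-table Input. SNORD73B, within RPS3A, had 4.22 FPKM in RIP SW480 and 12.7 in RIP DLD-1, on 9 and 23 reads, and was listed at 0 in all 4 Input columns. SNORD19, within GNL3, had 7 and 5 reads in the RIP libraries and was listed at 0 in all Inputs. A SNORD19 copy named from Rfam had 23 and 5 reads in RIP SW480 and RIP DLD-1, and 2 and 0 in the Inputs. A SNORD56 copy named from Rfam reached at most 3.28 FPKM and completed the 6.

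Of the genes known for ribosomal RNA processing (the SNORD3, SNORD13 and SNORD14 genes, SNORD22 and SNORD118), 23 were in the table, 9 were above 0 and 7 passed the filter. In SW480 6 of these were lower and 1, SNORD13, was higher (median -2.43), beside 16.6% and 21.0% of all genes. In DLD-1 3 were lower and 3 higher (median -0.48), beside 22.5% and 17.4%. The 3 higher were SNORD13, at 0 in the RIP-table Inputs, SNORD3B-1 and SNORD3B-2. Over the scaled acRIP-table Input DLD-1 they had log2 ratios of -0.68, -3.25 and 0.37, and SNORD13 had -3.71 in SW480. SNORD14A (U14), which both guides methylation and acts in 18S processing, had 8.16 FPKM in RIP SW480, 39.8 in Input SW480, 26.6 in RIP DLD-1 and 37.4 in Input DLD-1. Clusters with many snoRNA copies were nearly empty. Counted by symbol, the 15q11 imprinted cluster had 89 genes in the table and the GAS5 introns 19, and none of them was above 0. The symbols of the SNHG1 introns and the 14q32 imprinted cluster had 10 and 48, with 1 each above 0. Both of these were copies named from Rfam that were left unplaced, so they are not shown to lie there. The host genes SNHG1 (log2 RIP over Input 0.81 in SW480 and 1.76 in DLD-1) and GAS5 (0.59 and 1.42) were themselves measured and above Input.

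Box C/D genes were compared with the other small RNA classes past the same filter. In SW480 the median log2 ratio of RIP over Input was -1.84 for the 64 box C/D genes, -2.51 for 76 box H/ACA genes (SNORA, which guide pseudouridylation), -1.99 for 15 Cajal body RNAs (SCARNA), -1.57 for 172 snRNA genes and -0.94 for 178 miRNA genes. In DLD-1 these medians were -0.95, -1.51, -0.24, -0.98 and 0.0, respectively. Protein-coding genes had medians of 0.25 and 0.04. Medians below 0 were thus also seen in the other nuclear small RNA classes, and lay furthest from 0 in the box H/ACA genes. Over the scaled acRIP-table Inputs the box C/D median was -1.83 in SW480 and -0.64 in DLD-1, that of the SNORA genes -2.79 and -1.57, that of the SCARNA genes -2.56 and -0.90, and that of the snRNA genes -0.25 and 0.0. Over the exchanged Inputs, these medians were -1.85 and -1.28 for box C/D, -2.27 and -1.87 for SNORA, -1.12 and -1.23 for SCARNA, and -1.28 and -1.21 for snRNA genes.

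**Figure D3:**
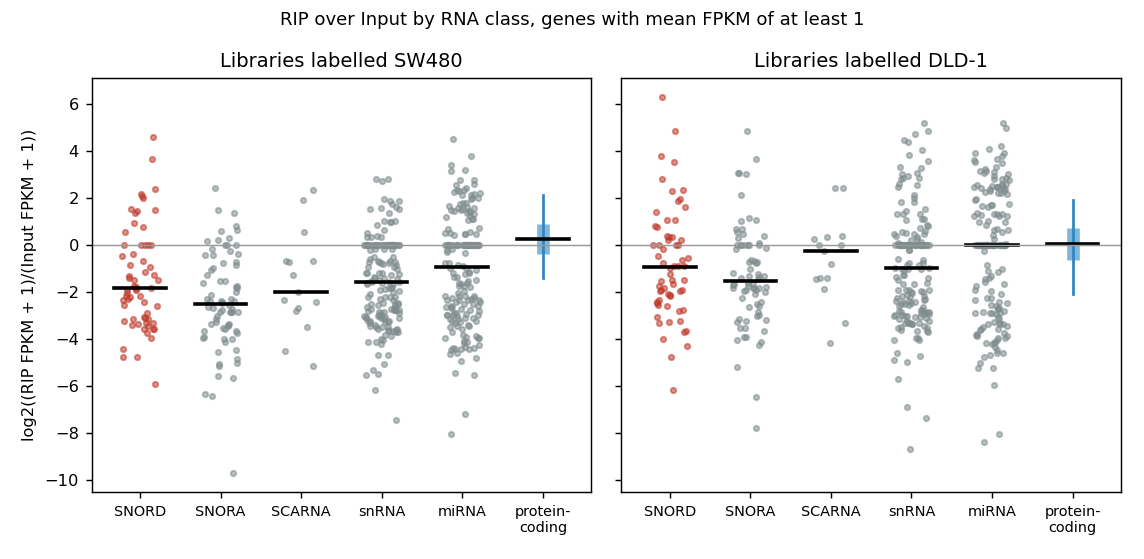
Log2 ratio of RIP over Input by RNA class for genes with a mean FPKM of at least 1, in the libraries labelled SW480 (left) and DLD-1 (right). Each point is a gene and each black bar a median. For the 11605 protein-coding genes the thick bar spans the middle 50% and the thin line the 5th to 95th percentile. The median of the box C/D genes (red) is -1.84 in SW480 and -0.95 in DLD-1, below the protein-coding medians of 0.25 and 0.04.

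Most box C/D genes lay inside another gene, and RIP over Input differed between the 2. Among the 68 genes whose position could be taken from RefSeq, 62 lay within a host gene (91.2%, exact 95% interval 81.8 to 96.7%), in 47 hosts, and of the SNORD genes listed at 0 with a position, 198 of 206 did (96.1%, 92.5 to 98.3%). In 51 pairs of a snoRNA gene and a host past the filter, the snoRNA gene had the lower log2 ratio in 41 pairs in SW480 and 40 in DLD-1. The medians were -1.88 for the snoRNA genes and 0.15 for the hosts in SW480, and -1.0 and 0.51 in DLD-1. After the exchange of Inputs, the snoRNA gene was the lower in 43 and 40 pairs. Across the pairs, which share hosts and libraries, the log2 ratios of snoRNA gene and host correlated at r = 0.149 in SW480 and 0.337 in DLD-1.

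ZFAS1, a non-coding snoRNA host, had 40.4 FPKM in RIP SW480, 11.8 in Input SW480, 50.9 in RIP DLD-1 and 8.13 in Input DLD-1, and so was higher in RIP in both lines. SNORD12C, within it, had 11, 118.4, 25.4 and 93.2 FPKM in the same order, and was lower in RIP in both. SNORD12B, its neighbour in ZFAS1, had 20.0, 69.2, 44.9 and 35.0 FPKM, and was lower in SW480 alone. RPL23A, the host of SNORD4A, had 154 FPKM in RIP SW480, 240 in Input SW480, 279 in RIP DLD-1 and 128 in Input DLD-1. SNORD4A had the higher log2 ratio of the pair in both lines, against Inputs in which it was listed at 0. Over the scaled acRIP-table Inputs, SNORD4A and RPL23A were both below Input in SW480, at -1.17 and -1.33, and had -0.33 and 0.31 in DLD-1. For SNORD73B, its host RPS3A was above Input too (log2 ratios 1.62 and 2.76). Reads counted in a snoRNA gene can come from the snoRNA itself or from the unspliced RNA of the host, and the tables do not separate these. Of the mRNAs of the box C/D core proteins, FBL had log2 ratios of 1.43 in SW480 and 0.46 in DLD-1. NOP58 had 0.69 and 0.20, SNU13 0.91 and 0.14, and RRP9, a U3 protein, 0.04 and 0.82. NOP56 had -0.75 and 0.29, so all but NOP56 in SW480 lay above Input.

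**Figure D4:**
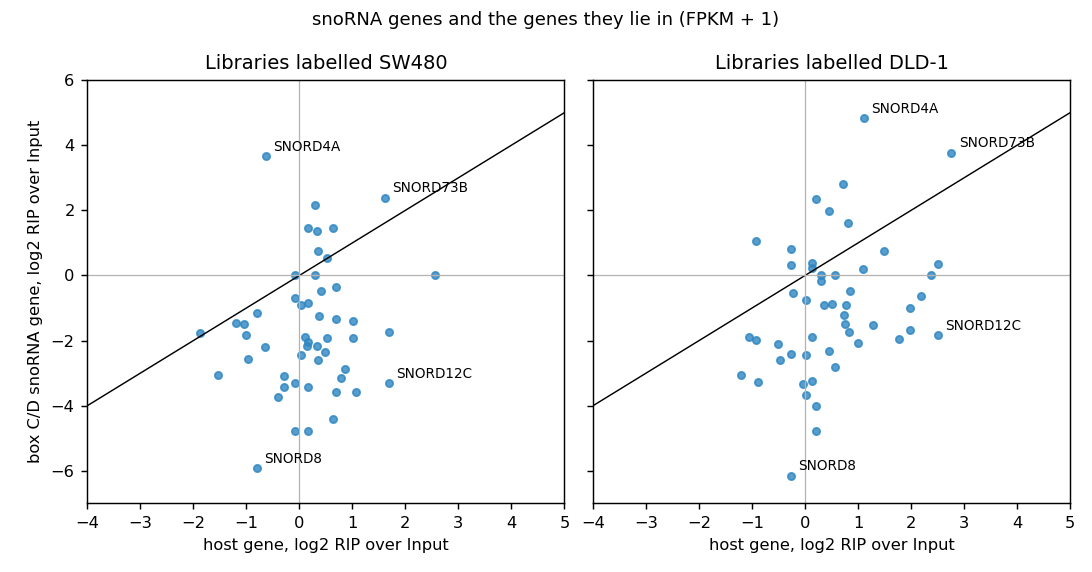
Log2 ratio of RIP over Input of 51 box C/D genes (vertical axis) against that of the host gene each lies in (horizontal axis), from FPKM + 1, in the libraries labelled SW480 and DLD-1. Each point is 1 snoRNA gene, genes of the same host share a horizontal position, and the diagonal marks equal ratios. In SW480 41 points and in DLD-1 40 points lie below the diagonal.

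The Inputs of the 2 lines were then compared, in the RIP table and again in the acRIP table. Of 64 box C/D genes, 15 were higher in Input SW480 in the RIP table (11.5% of all genes) and 12 in Input DLD-1 (16.7%). By the acRIP table, 19 were higher in SW480 (11.5%) and 13 in DLD-1 (14.5%). Across both tables, 9 were higher in SW480 (7.68%) and 6 in DLD-1 (11.4%), and 3 (SNORD117, SNORD126 and SNORD3B-1) had opposite calls. The filter and the choice of genes used the RIP table only. Both tables carry an Input of the same label, whether from 1 library or from separate ones was not stated, so they are not counted as replicates.

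SNORD20, a guide for 18S ribosomal RNA within NCL, was among the genes higher in SW480. It had 72.7 FPKM (85 reads) in Input SW480 and 12 FPKM (13 reads) in Input DLD-1, and 53.4 and 6.93 FPKM in the acRIP table. In the RIP libraries the order was the opposite, with 1.69 FPKM in RIP SW480 and 15.9 in RIP DLD-1. SNORD15A had 9.71 FPKM in Input SW480 and 33.1 in the acRIP table, and was listed at 0 in both DLD-1 Inputs and both RIP libraries. SNORD72 had 11.1 and 0.93 FPKM, and 29.5 and 1.16 in the acRIP table. In these genes SW480 lay above DLD-1 in both tables. Among those higher in DLD-1, SNORD11B had 1.52 FPKM in Input SW480 and 26.3 in Input DLD-1, and was at 0 and 32.9 in the acRIP table. SNORD38C and SNORD65C were listed at 0 in both SW480 Inputs and had 14 and 26.8, and 7.30 and 16.9 FPKM in the DLD-1 Inputs. Of the 9 genes higher in SW480 Input, RIP SW480 was above RIP DLD-1 in 3 and below it in 4, and 2 were at 0 in both RIP libraries. Of the 6 higher in DLD-1, RIP DLD-1 was above in 2 and below in 1, and 3 were at 0 in both.

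**Figure D5:**
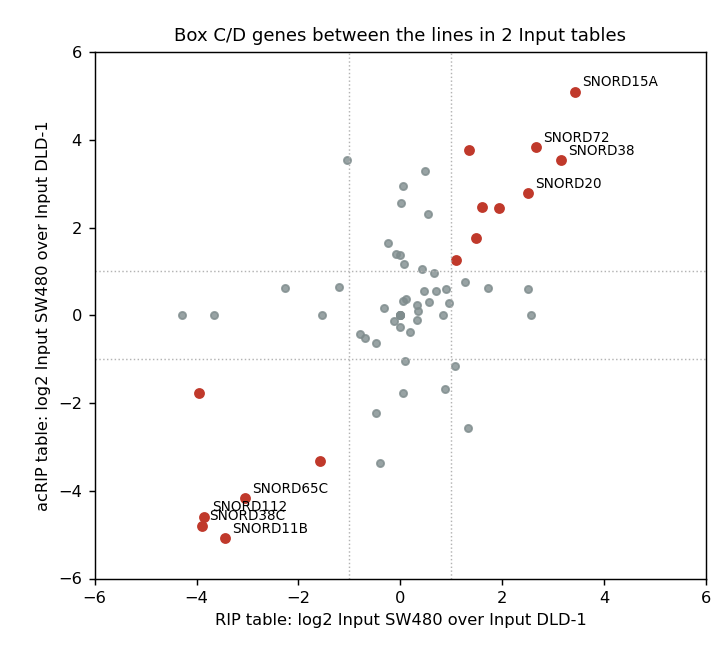
Log2 ratio of Input SW480 over Input DLD-1, from FPKM + 1, in the RIP table (horizontal axis) and in the acRIP table (vertical axis) for the 64 box C/D genes past the filter. Dotted lines mark a fold of 2. The 15 red points are past it in the same direction in both tables, 9 higher in SW480 and 6 higher in DLD-1.

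Finally, the positions of the snoRNA genes were set against the ac4C peaks. A gene was counted where at least 1 base lay in a peak on either strand, since the gene table used gives no strand. None of the 68 box C/D genes with a position lay in one of the 9536 peaks of the SW480 list, for which the exact 95% interval of the share is 0.0 to 5.28%, and none lay in one of the 15622 peaks of the pooled list. In the DLD-1 list of 13964 peaks SNORD4A was the single overlap. Its peak (chr17:28722608-28722877, GRCh38) covered 46 of its 72 bases at a fold of 31.1 over Input, but was assigned by the authors to an exon of AC010761.1 on the minus strand. A peak assigned to RPL23A, the host of SNORD4A, was on the plus strand in the same list. The overlap thus lay on the strand opposite to the peak of the host. No peak in any list was assigned to a SNORD gene.

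Of the 206 SNORD genes listed at 0 with a position, 12, 15 and 17 lay in a peak of the SW480, DLD-1 and pooled lists (5.83%, 7.28% and 8.25%), and the difference from the genes above 0 was not tested. Of the 18 such genes, 17 lay in a peak assigned to their own host, and 10 in a ribosomal protein gene. In RPL13A, for instance, the peaks reached SNORD32A, SNORD33, SNORD34 and SNORD35A, and in NOP56 they reached SNORD57 and SNORD86. Peaks were frequent on the hosts of the box C/D genes as well, in 37, 35 and 39 of 47 hosts in the 3 lists. The peaks were called on long-RNA libraries, and whether the reads in them were spliced was not examined here.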

How the data were processed

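Total RNA (Input), NAT10 RIP RNA and ac4C RIP RNA of SW480 and DLD-1 cells were sequenced with a kit named for long RNA, 1 library per group. The authors deposited FPKM values of the RIP and Input libraries, and a second table with values for both Inputs whose unit is not named and was read as FPKM. They also deposited 3 lists of ac4C peaks, each with a p-value and a fold enrichment of acRIP over Input, called per library and on pooled libraries. The processing notes name cutadapt 2.5, HISAT2 2.1.0 and the builds GRCh38 and hg38 (and GRCm38, a mouse build). The counting tool, its strand setting and the peak caller are not given in the sources used here. The paper names IgG as the control of RIP, but labels and table name Input, which was used. Columns with the authors' own ratios were not used, and acRIP expression columns were not used either.

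Reads were recovered as FPKM times gene length over the value of 1 read, with the RefSeq length (34 genes), a whole-number length within 30 bases of it (28), or the smallest length that gave whole reads (17, for which reads are lower limits), within 0.002 reads. Over small RNA genes with a RefSeq length, 68.7 to 81.0% of values per library were whole within 0.01 reads. Ratios of scaled reads (RPM) have exact 95% counting intervals. Gene-wise ratios used a pseudocount of 1 FPKM, a mean FPKM of at least 1 and a fold of 2, with no test. limma 3.58.1 (R 4.3.3), with the lines as replicates and Benjamini-Hochberg adjustment over 15086 genes, was the alternative and was tested on simulated data. A fit with the line label as a block was added after the data were seen. The pairing by line comes from the labels, but deviations from the group means correlated at -0.68 between RIP and Input of a label. Positions, lengths and hosts came from RefSeq (GRCh38.p14) for 68 of 79 genes, hosts by position without strand, and 11 genes named from Rfam were left unplaced. Peak starts were moved by 1 base. A same-strand overlap was planned and could not be run, because the gene table has no strand.

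Named genes were the SNORD3 and SNORD13 genes, the 5 highest in Input and in RIP, and the 5 highest and 5 lowest by the smaller log2 ratio with the same sign in both lines. Others named were chosen after their values were seen. The genes and lists were chosen with earlier results of these data known.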

Additional observations from a re-analysis of the deposited data

Results flagged for a closer look

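In 14 box C/D genes the RIP library stood on opposite sides of Input in the 2 lines, at any size. The share of all genes at any size was not worked out. At a fold of at least 2, 7 of 64 box C/D genes had opposite calls, beside 11.4% of all genes, so such calls were not more frequent here. With 1 library per group the difference was not tested. The values below are the log2 ratio of RIP over Input in SW480 minus that in DLD-1. The widest differences were in the near-identical copies SNORD3B-2 (-5.83) and SNORD3B-1 (-4.62) and in SNORD20 (-5.15). SNORD93 differed by -4.26, SNORD117 by -3.42, SNORD72 by -2.82, SNORD70 by -2.70, SNORD12B by -2.09, SNORD9 by -1.46, SNORD99 by -1.44 and SNORD6 by -0.68. The other sign was seen in a SNORD112 copy named from Rfam (4.3), SNORD100 (3.13) and SNORD126 (2.5). SNORD9, SNORD70 and SNORD126 rest on at most 9 reads in any library of the RIP table.

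These differences rest on labels of RIP and Input that did not pair. With the Inputs exchanged between labels, 7 of the 14 had one sign in both RIP libraries (SNORD3B-2, SNORD9, SNORD12B, SNORD20, SNORD70, SNORD93 and SNORD126), as in SNORD20 with -2.28 for RIP SW480 and -2.13 for RIP DLD-1. A further 4 had opposite signs in the turned order, namely SNORD6, SNORD72 with 0.87 and -1.61, SNORD100 with -0.79 and 0.60, and the SNORD112 copy with -2.32 and 1.07. Only 3 kept their order, namely SNORD3B-1, SNORD99 and SNORD117.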

How the results depend on the processing

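Across 268 recalculated values, 167 kept their direction and size, 95 moved and 6 reversed. In SW480, 41 lower and 10 higher genes became 23 and 2 (median -0.59) with a pseudocount of 10 FPKM, and 22 and 2 (median -3.08) at a mean of at least 10 FPKM. The higher genes became 1 with an Input of at least 1 FPKM in both lines, 6 at a fold of 4, and 4 where the counting interval also had to exclude 1. In DLD-1, 31 and 13 became 19 and 6 with the pseudocount of 10, 13 and 3 at a mean of at least 10, and 20 and 7 at a fold of 4. The higher genes became 4 with an Input of at least 1 FPKM and 8 with the counting interval. The shares of all genes at these settings were not worked out, so the counts are not compared with them. Asking for an Input of at least 1 FPKM also leaves out, by design, the genes listed at 0 in an Input. By limma, with the lines as replicates, 0 were lower and 0 higher in both lines at an adjusted p under 0.05, against 21 and 6 by fold. With the line label as a replicate block, a fit added after seeing the data, limma gave 0 and 0 (20 and 4 at an unadjusted p under 0.05). With a replicate block that pairs each RIP library with the Input of the other label, also added after seeing the data, 29 were lower and 4 higher. Of all 15086 genes, 1705 were lower and 2595 higher in that fit at the same adjusted p. Its pairing was chosen from the same values, so it is not a separate check. Over the scaled acRIP-table Inputs SNORD13 changed from above Input to -3.71 in SW480 and -0.68 in DLD-1, SNORD4A to -1.17 and -0.33, and SNORD3B-1 in DLD-1 to -3.25. With the Inputs exchanged between labels, SNORD3B-2 in SW480 changed to 0.20. The cause was not tested. No replicate could be left out, since each group holds 1 library. Same-strand peak overlaps were not run. Depth limits most genes: at 1 read per 0.422 to 1.16 FPKM in 80 bases, a 0 does not show absence.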
